A study of Mus musculus with 7 samples.

Results

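Synaptic transmission in the retina was followed through 36 genes of the ribbon synapse and the synaptic vesicle, chosen by symbol from the 25655 genes of the count table. They comprise 12 genes of vesicle proteins, 6 of the SNARE fusion machinery and its recycling, 4 complexins, 9 genes of the ribbon and active zone, 4 of vesicle endocytosis and the scaffold gene Dlg4. All 36 had a row, and all 36 had enough counts to be tested. The libraries came from whole retinas of wild-type C57BL/6 mice collected 2 days after optic nerve crush, an injury to the axons of the ganglion cells. Both groups had been given AAV2, an adeno-associated viral vector, which carried Tppp3, a gene of a tubulin polymerization-promoting protein, in one group and a control construct in the other. The labels link the control vector with CMV, name no promoter for the Tppp3 vector, and give neither the age nor the sex of the animals. Nothing in the labels says whether each library came from a separate animal, so the tests measure only the spread between these libraries.

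The comparison rested on 3 control AAV2 libraries of 10961443 to 16218074 gene counts and 3 Tppp3 AAV2 libraries of 19961359 to 21843892, so that every Tppp3 library was the deeper. Levels are given as CPM, counts scaled to a common library size after TMM correction. The 3 control libraries held 18.7, 22.2 and 28.02 CPM of Tppp3 and the 3 Tppp3 AAV2 libraries 53.7, 36.5 and 41.8. The vector gene was thus higher in each treated library than in any control, by 0.94 ± 0.20 (SE) on the log2 scale, at an adjusted p of 0.639 in edgeR's quasi-likelihood test. It was called by DESeq2's Wald test, at an adjusted p of 2.14e-05. Each of the 9 rod markers used, such as Gnat1, the gene of rod transducin, was detected in every library, and their summed level was 26996 to 27577 CPM in the controls against 23226 to 27486 with Tppp3 AAV2.

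Neurons release transmitter when a vesicle carrying the SNARE protein synaptobrevin fuses with a membrane that holds syntaxin and SNAP-25, once calcium has bound to synaptotagmin. Photoreceptors and bipolar cells do this at ribbon synapses, where a plate built mainly of the protein RIBEYE tethers many vesicles and lets release continue for as long as the cell is depolarized, whereas amacrine and ganglion cells release at conventional synapses. Ribbon terminals use their own versions of several parts, among them syntaxin 3 in place of syntaxin 1 and complexins 3 and 4 in place of complexins 1 and 2, and they lack the synapsins of conventional terminals.

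The stretches upstream of the start sites are shown for 2 pairs of genes, one of each pair from ribbon terminals or from both kinds of terminal and the other from conventional terminals alone, and for both starts of the ribbon gene Ctbp2. The pairs are Syp of synaptophysin and Syn1 of synapsin 1, and the syntaxin genes Stx3 and Stx1a, whose levels lay far apart in every library. Each is the 250 bases before a RefSeq start on build GRCm38.p6, written 5′ to 3′ on the strand of the gene. Capitals mark exact matches on either strand to TAATCC, the core bound by photoreceptor homeodomain factors such as CRX, to GGGCGG, the GC box, to TGACGTCA, the cyclic AMP response element, or to CAGCACC, the left part of the element bound by the neuronal repressor REST.
Syp (chrX:7638330-7638579, plus strand): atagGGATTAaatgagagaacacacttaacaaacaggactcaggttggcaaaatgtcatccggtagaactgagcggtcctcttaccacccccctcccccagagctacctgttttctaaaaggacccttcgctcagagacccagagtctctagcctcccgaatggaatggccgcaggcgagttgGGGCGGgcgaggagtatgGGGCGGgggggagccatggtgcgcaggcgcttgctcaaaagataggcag
Syn1 (chrX:20920919-20921168, minus strand): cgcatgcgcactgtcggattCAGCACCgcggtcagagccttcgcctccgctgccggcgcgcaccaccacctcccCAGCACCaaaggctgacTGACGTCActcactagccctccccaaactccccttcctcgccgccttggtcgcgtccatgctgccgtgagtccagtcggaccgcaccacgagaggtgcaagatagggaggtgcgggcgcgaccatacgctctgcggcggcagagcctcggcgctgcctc
Stx3 (chr19:11819404-11819653, minus strand): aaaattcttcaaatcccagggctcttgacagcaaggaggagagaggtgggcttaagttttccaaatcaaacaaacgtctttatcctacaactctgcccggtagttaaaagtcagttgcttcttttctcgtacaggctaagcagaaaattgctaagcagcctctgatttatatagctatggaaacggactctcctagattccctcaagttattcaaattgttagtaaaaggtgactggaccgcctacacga
Stx1a (chr5:135023232-135023481, plus strand): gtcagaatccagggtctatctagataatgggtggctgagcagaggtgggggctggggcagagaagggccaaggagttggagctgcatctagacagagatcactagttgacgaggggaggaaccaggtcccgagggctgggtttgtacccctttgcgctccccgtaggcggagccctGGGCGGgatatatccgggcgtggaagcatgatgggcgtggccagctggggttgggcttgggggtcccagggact
Ctbp2, upstream start (chr7:133081861-133082110, minus strand): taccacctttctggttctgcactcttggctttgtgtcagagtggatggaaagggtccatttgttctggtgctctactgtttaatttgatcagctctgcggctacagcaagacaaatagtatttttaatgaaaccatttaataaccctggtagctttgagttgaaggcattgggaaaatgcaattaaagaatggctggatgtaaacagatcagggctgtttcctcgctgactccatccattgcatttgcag
Ctbp2, downstream start (chr7:133015248-133015497, minus strand): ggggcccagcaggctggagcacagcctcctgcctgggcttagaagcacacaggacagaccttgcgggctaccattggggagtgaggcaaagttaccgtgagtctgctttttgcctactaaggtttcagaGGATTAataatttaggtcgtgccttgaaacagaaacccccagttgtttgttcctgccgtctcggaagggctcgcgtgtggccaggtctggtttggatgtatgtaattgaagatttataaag

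Syp holds 2 GC boxes and, near the far end of its window, 1 match to TAATCC read on the opposite strand. Syn1 holds the palindrome TGACGTCA and 2 matches to CAGCACC. Stx3 holds none of the 4 motifs and Stx1a 1 GC box. The starts of Ctbp2 lie 66.6 kb apart, and only the downstream one has a match, to TAATCC on the opposite strand. RefSeq windows were found for 30 of the 36 genes, 43 windows in all. TAATCC was present in 5 of the 43, or 11.6%, and in 6.25% of all 32851 windows in the table. Those 5 windows belong to Ctbp2, Dlg4, Sv2b and Syp. GGGCGG was present in 18 of the 43 (41.9%, against 32.7% of all windows). TGACGTCA was present in 1, that of Syn1 (2.33% against 1.55%), and CAGCACC in 3 (6.98% against 5.73%). No printed match overlaps another, and a match is a string of letters, not a shown binding site.

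None of the 36 synaptic genes differed between Tppp3 AAV2 and control AAV2 past the threshold, an adjusted p under 0.05 over all 14750 tested genes, where 0.0136% of all genes passed. At an unadjusted p under 0.05 the count was also 0 of 36, against 7.23% of all tested genes. DESeq2's Wald test called 0 of the 36 at either p, where 0.101% of the genes with an adjusted p passed after adjustment and 3.54% of all genes in its fit before it. With limma's voom and quality weights the counts were also 0 of 36, where 0.00678% and 8.43% of all genes passed. The log2 fold changes ran from -0.086 for the syntaxin gene Stx3 to 0.17 for the syntaxin gene Stx1a. Positive values were found for 24 of the 36, with a median of 0.020, beside 50.9% positive and a median of 0.0030 over all tested genes. These values moved when single libraries were left out, with 20 positive and a median of 0.0061 without Tppp3 replicate 1, 20 and 0.012 without Tppp3 replicate 3, and 28 and 0.055 without Tppp3 replicate 2.

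Of the 36 genes, 29 averaged over 100 CPM. Standard errors of the log2 fold change had a median of 0.060, beside 0.10 over all tested genes. The 95% interval of the difference stayed within 1.5-fold in both directions for 36 of 36 synaptic genes and within 1.25-fold for 34 of 36, where these shares were 75.02% and 52.2% over all tested genes. The 2 whose intervals reached beyond 1.25-fold were Stx1a (-0.13 to 0.46) and the active zone gene Rims2 (-0.081 to 0.33), both on the higher side. These were retinas as a whole, in which fewer cells of a type and less RNA per cell cannot be told apart.

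**Figure D1:**
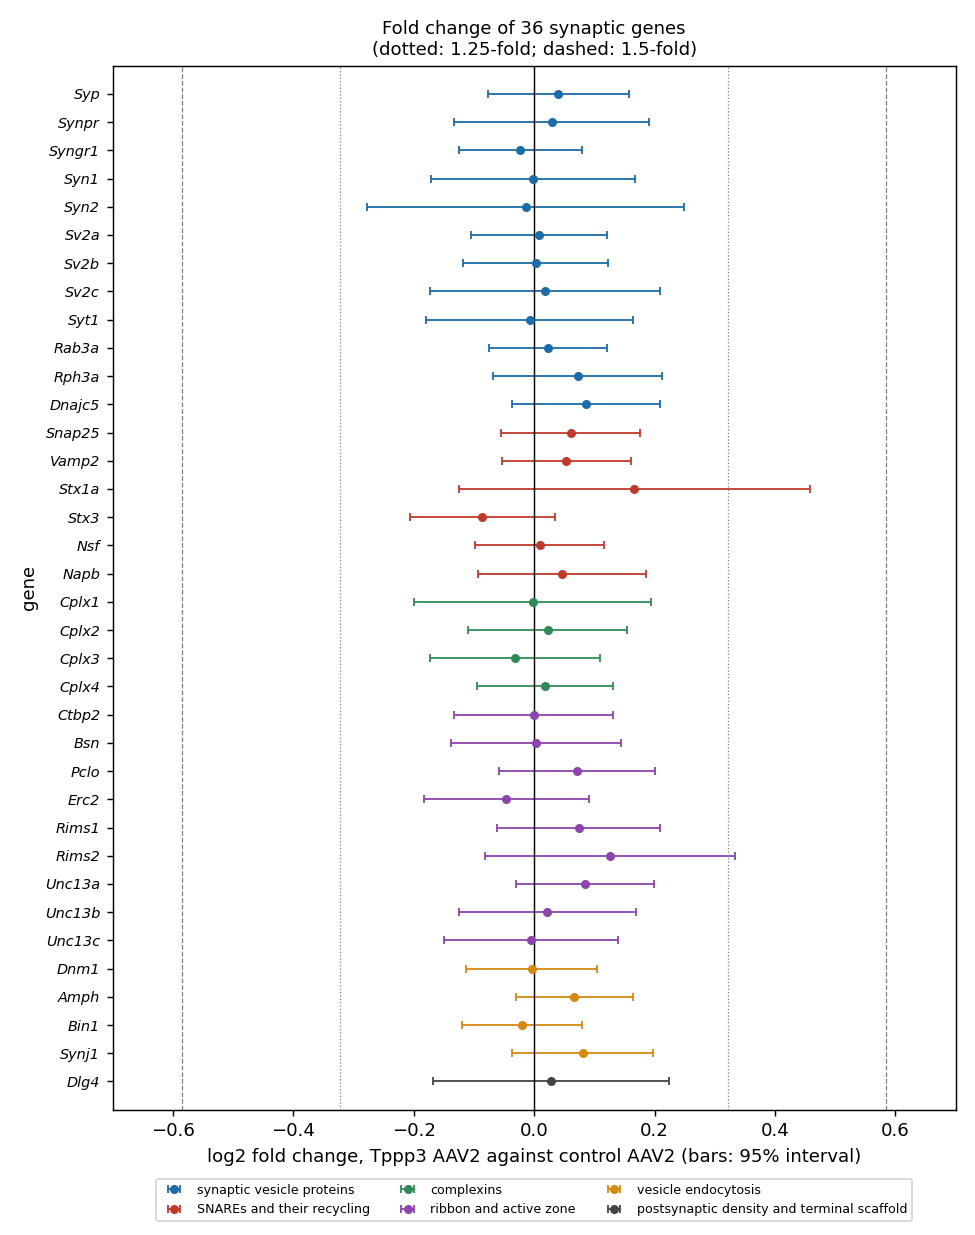
Log2 fold change of each of the 36 synaptic genes, Tppp3 AAV2 against control AAV2 (x axis), by gene (y axis) and coloured by role, with 3 libraries per group and bars for the 95% interval of edgeR's fit. Every interval holds 0, and only those of Stx1a and Rims2 pass the dotted lines at 1.25-fold, while none reaches the dashed lines at 1.5-fold.

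The 12 genes of synaptic vesicle proteins lay between -0.023 and 0.087 in log2 fold change. Syp encodes synaptophysin, a major membrane protein of the vesicle, and stood at 1257, 1226 and 1243 CPM in the 3 control libraries and 1275, 1324 and 1232 in the 3 Tppp3 AAV2 libraries. Its highest value was in Tppp3 replicate 2 and its lowest in control replicate 2, and the groups overlapped, with a log2 fold change of 0.040 ± 0.053 (SE; edgeR adjusted p = 0.909). Dnajc5 encodes the cysteine string protein, a chaperone on the vesicle that keeps SNAP-25 in a usable fold, and had the smallest p among the 12 genes. It held 461, 499 and 509 CPM in the controls against 497, 527 and 536 with Tppp3 AAV2. Tppp3 replicates 2 and 3 lay above all controls and replicate 1 among them, for a log2 fold change of 0.087 ± 0.056 (SE; edgeR adjusted p = 0.783).

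Syt1, the gene of the calcium sensor synaptotagmin 1, varied more within the groups than between them. The controls held 1122, 1300.3 and 1331 CPM and the Tppp3 AAV2 libraries 1137, 1293 and 1304, so that replicate 1 was the lowest of its group on both sides. The log2 fold change was -0.0076 (edgeR adjusted p = 0.991). Rab3a, the gene of a vesicle GTPase that recruits effectors at the active zone, was the steadiest of the group in the controls, at 167, 164 and 164 CPM, and at 167, 166 and 171 with Tppp3 AAV2. Its log2 fold change was 0.023, within an interval of -0.075 to 0.12. Rph3a, whose product rabphilin 3A binds Rab3, held 190.1, 184 and 176 CPM in the controls. With Tppp3 AAV2 it held 203, 174 and 201, with replicate 2 below every control and replicates 1 and 3 above (log2 fold change 0.072, edgeR adjusted p = 0.845).

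The 3 SV2 genes, of membrane glycoproteins of the vesicle, lay close to 0. Their log2 fold changes were 0.0087 for Sv2a, 0.0023 for Sv2b and 0.018 for Sv2c. Synpr and Syngr1, which encode the synaptophysin relatives synaptoporin and synaptogyrin 1, stood at 0.029 and -0.023. The synapsins tie vesicles to each other and to actin in conventional terminals, and their genes Syn1 and Syn2 stood at -0.0019 and -0.014. Syn2 was scattered among the controls, at 39.5, 30.7 and 28.6 CPM, with replicate 1 above all 5 other libraries, and held 35.4, 30.5 and 31.95 with Tppp3 AAV2. In all, 8 of the 12 vesicle protein genes had a positive fold change and 4 a negative one, the groups overlapped in all 12, and the median was 0.013.

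The SNARE genes held the opposite ends of the range. Stx3 encodes syntaxin 3, the syntaxin of ribbon terminals, and had the most negative value of the 36. It held 687, 628 and 642 CPM in the controls against 601, 604 and 639.6 with Tppp3 AAV2. Tppp3 replicates 1 and 2 lay below every control while replicate 3 exceeded control replicate 2, and the log2 fold change was -0.086 ± 0.055 (SE; edgeR adjusted p = 0.782). Stx1a encodes syntaxin 1A of conventional terminals and had the fewest counts of the set, at 10.2, 8.91 and 8.04 CPM in the controls against 10.8, 9.697 and 9.92 with Tppp3 AAV2. These values rest on raw counts of 115, 145 and 89 against 213, 215 and 209 in the deeper Tppp3 libraries. Control replicate 1 lay among the Tppp3 values, and the log2 fold change of 0.17 ± 0.13 (SE) had an edgeR adjusted p of 0.824.

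Vamp2, the gene of synaptobrevin 2 on the vesicle side of the SNARE complex, was 1 of only 2 synaptic genes whose groups did not overlap. The controls held 694, 711 and 686 CPM and the Tppp3 AAV2 libraries 717, 713 and 741. The highest control and the lowest Tppp3 value lay close together, and the log2 fold change was 0.054 ± 0.049 (SE; edgeR adjusted p = 0.848). Every Tppp3 library stood above every control for 6.92% of all tested genes, against 2 of 36 or 5.56% here, and the reverse held for 7.02% of all genes and 0 of the 36. Snap25, which encodes the third SNARE protein, averaged 949.8 ± 29.2 CPM over the 3 controls against 991 ± 28.02 over the 3 Tppp3 libraries (SD). Its libraries held 981, 946 and 923 CPM and 1002, 959 and 1011, with Tppp3 replicate 2 inside the control range and the other two above it (log2 fold change 0.061, edgeR adjusted p = 0.841). Nsf and Napb, whose products take spent SNARE complexes apart, stood at 0.0093 and 0.046. Together, 5 of the 6 genes were positive, with a median of 0.050.

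Complexins bind the partly assembled SNARE complex and regulate its calcium-triggered release, and the log2 fold changes of their 4 genes lay between -0.032 and 0.023. Cplx3 had the smallest p of them. It held 408, 369 and 365 CPM in the controls against 398, 345 and 375 with Tppp3 AAV2, with replicate 1 the highest of each group, and averaged 381 ± 23.5 CPM over the 3 controls against 373 ± 26.6 over the 3 Tppp3 libraries (SD). Its log2 fold change was -0.032 ± 0.064 (SE; edgeR adjusted p = 0.946). Cplx4, which like Cplx3 serves ribbon terminals, held 599.8, 624 and 657 CPM in the controls against 634, 631 and 639 with Tppp3 AAV2. Its 3 Tppp3 values fell within the control range, and the 95% interval of its log2 fold change was -0.10 to 0.13. Cplx1 and Cplx2, the genes of conventional terminals, stood at -0.0025 and 0.023. All 4 genes overlapped between the groups, 2 with positive and 2 with negative fold changes.

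Ctbp2 yields both the ribbon protein RIBEYE and the transcriptional corepressor CtBP2 from separate starts that share most of their coding exons, and a count per gene symbol does not part them. The gene held 229, 269.7 and 249.5 CPM in the controls against 245, 253 and 249.6 with Tppp3 AAV2. The 3 Tppp3 values lay close together inside the wider control range, and the log2 fold change was -0.00069, within an interval of -0.13 to 0.13. Bsn and Pclo encode Bassoon and Piccolo, giant scaffold proteins, of which Bassoon anchors the ribbon to the membrane. Bsn stood at 0.0037 and Pclo at 0.071, the latter from 273, 282 and 261 CPM in the controls against 299, 263 and 296 with Tppp3 AAV2. Erc2, the gene of the active zone protein CAST, stood at -0.046.

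The genes of vesicle priming included the smallest p of the whole set. Unc13a encodes Munc13-1, which readies docked vesicles for fusion, and held 195, 200.1 and 202 CPM in the controls against 216, 198 and 219 with Tppp3 AAV2. Tppp3 replicate 2 fell among the controls and the other two lay above them, for a log2 fold change of 0.085 ± 0.052 (SE), an unadjusted p of 0.131 and an adjusted p of 0.771 in edgeR's test. Unc13b, of Munc13-2, held 582, 539 and 584 CPM in the controls against 599.6, 521 and 611 with Tppp3 AAV2. Its Tppp3 replicate 2 was the lowest of all 6 libraries and its replicate 3 the highest, and the log2 fold change was 0.022. Unc13c stood at -0.0058.

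RIM proteins bind Rab3 on the vesicle and gather calcium channels at the release site. Rims2 held 279, 299 and 299.8 CPM in the controls against 317, 278 and 364 with Tppp3 AAV2. Tppp3 replicate 3 was the highest of the 6 libraries and replicate 2 the lowest, so that the treated group spanned the controls, with a log2 fold change of 0.13 ± 0.091 (SE; edgeR adjusted p = 0.806). Rims1 was of the same shape, at 100.2, 98.95 and 105 CPM against 109, 97.8 and 113, with a log2 fold change of 0.074. Of the 9 ribbon and active zone genes, 6 were positive and 3 negative, all 9 overlapped between the groups, and the median was 0.022.

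Among the genes that retrieve vesicle membrane after fusion, Amph was the other whose groups did not overlap. It encodes amphiphysin, which brings dynamin to the neck of a budding vesicle, and held 232, 234 and 239 CPM in the controls against 244, 247 and 248 with Tppp3 AAV2. The difference between 235 ± 4.05 and 246 ± 1.99 CPM (SD, n = 3 per group) came to a log2 fold change of 0.067 ± 0.044 (SE; edgeR adjusted p = 0.789). Dnm1, of the membrane-cutting GTPase dynamin 1, held 669, 661 and 638 CPM in the controls against 670.2, 656 and 637 with Tppp3 AAV2, overlapping ranges with a log2 fold change of -0.0039. Synj1, of synaptojanin 1, a lipid phosphatase that helps the clathrin coat to come off, stood at 0.081. Bin1, an amphiphysin relative also made outside neurons, stood at -0.020. The group of 4 had 2 positive and 2 negative values.

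Dlg4 encodes PSD-95, a scaffold of postsynaptic densities that in the retina is also found within photoreceptor terminals. It held 792, 814 and 692 CPM in the controls against 802, 691 and 850.3 with Tppp3 AAV2. The lowest values, in control replicate 3 and Tppp3 replicate 2, were nearly equal, and the groups covered almost the same range. The log2 fold change was 0.028 ± 0.087 (SE; edgeR adjusted p = 0.969).

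**Figure D2:**
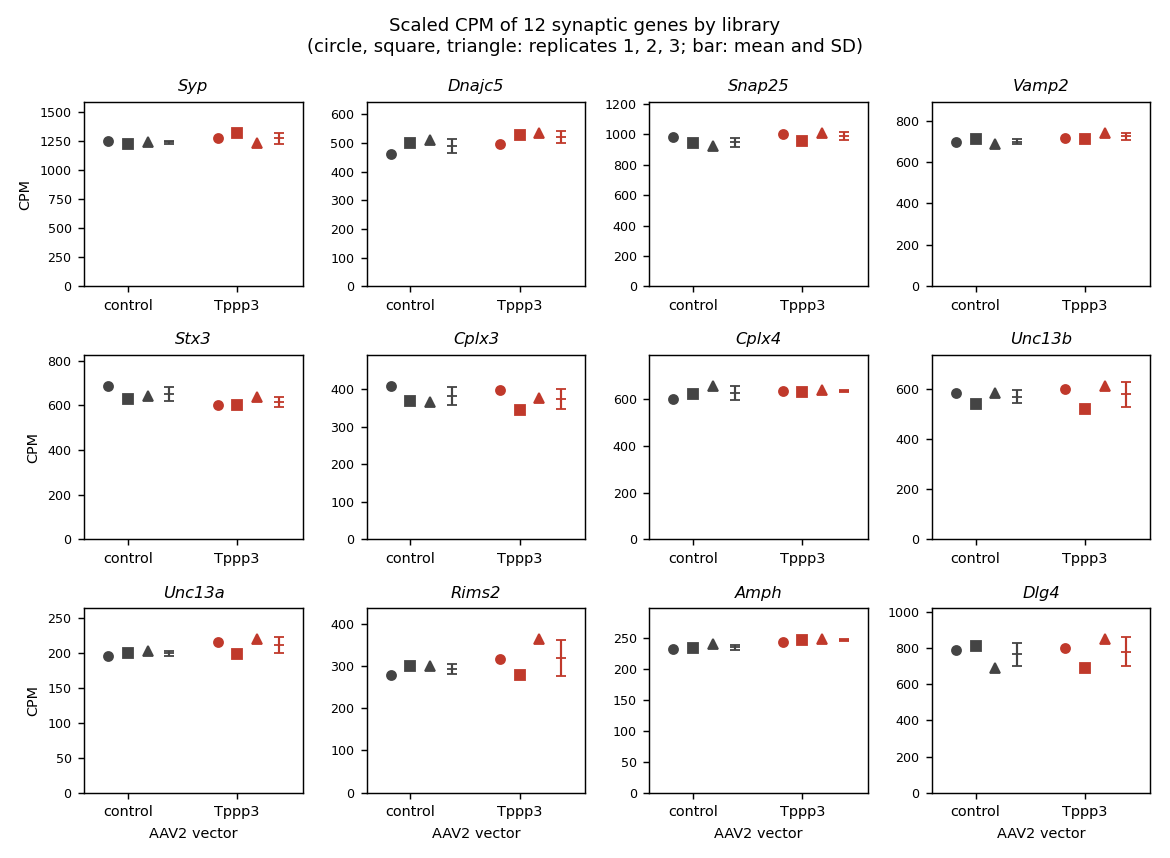
Level of 12 synaptic genes in CPM (y axes, from 0) in the 3 control AAV2 and 3 Tppp3 AAV2 libraries (x axes), 1 symbol per replicate, with the mean and SD beside them. The groups lie apart only for Vamp2 and Amph, by less than the height of a symbol for Vamp2, and Tppp3 replicate 2 (square) is the lowest treated value for Unc13a, Unc13b, Rims2, Cplx3, Cplx4, Snap25, Vamp2 and Dlg4.

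The treated libraries did not stand together. Summed over the 36 genes, the level was 13906, 14024 and 13904 CPM in the controls against 14230.4, 13793 and 14481 with Tppp3 AAV2, so that Tppp3 replicate 3 was the highest and Tppp3 replicate 2 the lowest of all 6. Tppp3 replicate 2 held the lowest value of the 6 for 13 genes and the highest for 1, Syp, while Tppp3 replicate 3 held the highest for 14 and the lowest for 2. Relative to the mean of the 6 libraries, the median gene lay at -0.031 in Tppp3 replicate 2 on the log2 scale, and at 0.042 and 0.040 in replicates 1 and 3.

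Leaving out Tppp3 replicate 2 brought 5 of the 36 genes to an unadjusted p under 0.05, all higher with Tppp3 AAV2, where 4.84% of all tested genes were higher at that p in the same fit. They were Rims2 (log2 fold change 0.22), Rph3a (0.14), Rims1 (0.13), Unc13a (0.13) and Pclo (0.13), genes of the active zone and of a Rab3 effector. The library left out held the lowest treated value of each of these 5 genes, so their higher fold changes without it follow from the values already seen. None passed after adjustment over all genes, and the smallest adjusted p was 0.457, for Rims2. The other 5 libraries, left out in turn, gave 0 of 36 at an unadjusted p under 0.05. Those 5 genes were nearer 0 without another treated library. Without Tppp3 replicate 3 the log2 fold change was 0.022 for Rims2, 0.028 for Rims1 and 0.056 for Unc13a, and without Tppp3 replicate 1 it was 0.028 for Rph3a and 0.034 for Pclo. Tppp3 replicate 2 also stood apart in cell type markers. Its summed level of 9 rod markers was 23226 CPM, below the range of 26610.2 to 27577 in the 5 other libraries. That of 10 Müller glia markers was 7236, above their range of 5584 to 6414. Single markers did not all follow these sums. This library was the lowest for each rod marker but Sag and Pdc. It was the highest for each Müller glia marker but Rlbp1, Glul and Dkk3. The part of this shift in the synaptic values was not tested.

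**Figure D3:**
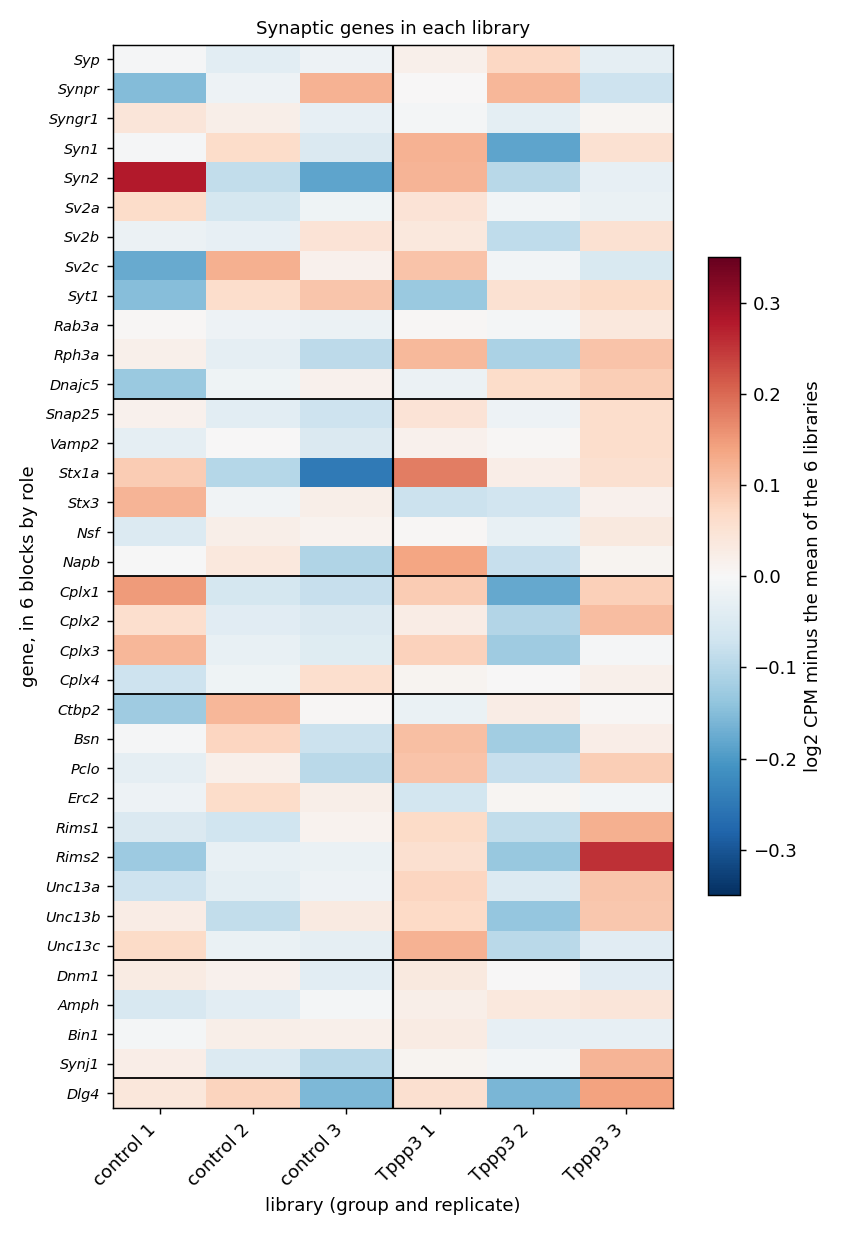
Log2 CPM of each synaptic gene (rows, in 6 blocks by role) in each library (columns), minus its mean over the 6 libraries (colour). Bsn, Pclo, Rims1, Rims2 and Unc13b are blue in Tppp3 replicate 2 and red in Tppp3 replicates 1 and 3, and Syt1 is blue in replicate 1 of both groups.

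Levels of different genes were compared per kilobase, dividing CPM by the length of the longest coding transcript in the GENCODE M21 annotation of build GRCm38. Syp led at 486 CPM per kb, followed by Snap25 at 459 and Cplx4 at 347, and this order also held with the joined length of all exons. With the median length of each gene's transcripts Cplx3 led at 634, followed by Snap25 at 619.99 and Syp at 486. At the other end stood Sv2c at 3.93 and Stx1a at 4.44 CPM per kb. Which transcripts the retina uses is not known from these counts, and several of the ratios move with the length measure. The ratios describe all 6 libraries and carry no test.

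Among syntaxins and complexins, the paralogs of ribbon terminals stood above those of conventional terminals per kb. Stx3 exceeded Stx1a by 42.7 to 61.4 times per kb over the 6 libraries, by 26.5 to 38.2 times with joined exons and by 69.6 to 100.1 times with the median transcript length. Cplx4 exceeded Cplx1 by 7.38 to 9.74 times and Cplx3 exceeded Cplx2 by 2.85 to 3.21 times, or 13.7 to 15.4 with the median transcript length. Of the summed complexin level per kb, Cplx4 made up 61.5% ± 2.48 in the controls against 62.1% ± 1.64 with Tppp3 AAV2 (SD, 3 libraries each). Cplx3 made up 23.7% ± 1.49 in the controls against 23.1% ± 1.02 with Tppp3 AAV2. The order of Cplx3 and Cplx4 depends on the length taken, since with the median length of its transcripts Cplx3 would lead, with a Cplx4 to Cplx3 ratio of 0.481 to 0.598. Cplx1 and Cplx2 averaged 40.5 and 42.7 CPM per kb, and their ranges over the libraries overlapped. Cplx2 was the higher in each library but control replicate 1, where Cplx1 held 44.8 and Cplx2 44.5 CPM per kb.

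The pair of Syp and Syn1 whose upstream windows are printed also lay far apart. Syp exceeded Syn1 by 16.4 to 21.1 times per kb, and Syn1 exceeded Syn2 by 2.68 to 3.62 times, or 3.46 to 4.67 with joined exons. Sv2a and Sv2b lay close, with a ratio of Sv2b to Sv2a of 0.950 to 1.06, while Sv2a exceeded Sv2c by 22.3 to 29.95 times, or 13.8 to 18.6 with the median transcript length. Rims2 exceeded Rims1 by 3.74 to 4.31 times, or 2.44 to 2.81 with joined exons. Unc13b exceeded Unc13a by 1.82 to 2.08 times, or 1.54 to 1.75 with joined exons and 3.23 to 3.67 with the median transcript length, and it exceeded Unc13c by 4.02 to 4.603, 3.38 to 3.86 and 8.05 to 9.21 times by the same 3 measures. Bsn and Pclo lay close, at a ratio of 0.941 to 1.02. The shares within families are given for both groups, with no test. Of the 3 Munc13 genes, Unc13b made up 57.3% ± 1.05 in the controls against 56.7% ± 0.943 with Tppp3 AAV2 (SD, n = 3 per group). Of the 2 RIM genes, Rims2 made up 79.5% ± 0.683 in the controls against 80.01% ± 1.04 with Tppp3 AAV2. Of the 2 syntaxins, Stx1a made up 1.77% ± 0.147 in the controls against 2.103% ± 0.164 with Tppp3 AAV2.

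**Figure D4:**
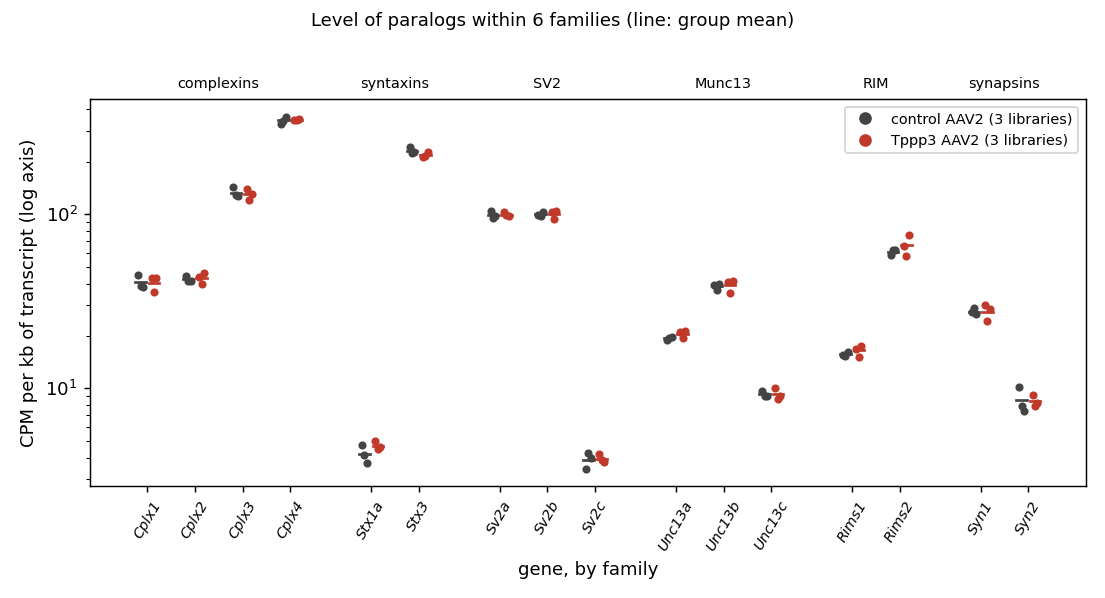
Level in CPM per kb of the longest coding transcript (y axis, log scale) of the members of 6 families (x axis), 1 point per library and a line at each group mean, control AAV2 in grey and Tppp3 AAV2 in red. Stx3 lies far above Stx1a, Cplx3 and Cplx4 above Cplx1 and Cplx2, and Sv2c below Sv2a and Sv2b, and grey and red points overlap or adjoin in each gene.

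Some of these genes share ground with others, and the counting was not stated to use strand. The kit as labelled is not a directional one, so reads from bases shared on opposite strands cannot be parted by strand. Timp1 lies within Syn1 on the opposite strand, with 0 exon bases in common, and Timp4 lies within Syn2 with 90 in common, in GENCODE M21. Timp1, an inhibitor of matrix proteases, held 1.33, 1.29 and 2.44 CPM in the controls against 1.52, 4.15 and 0.950 with Tppp3 AAV2, and Timp4 averaged 0.728 ± 0.366 CPM over the 3 controls against 0.722 ± 0.234 over the 3 Tppp3 libraries (SD). The host genes Syn1 and Syn2 held control means of 90.1 and 32.9 CPM. Syp shares 875 exon bases with a predicted antisense gene. Pclo shares 429 and 496 with antisense genes, and Bin1 shares 256 with a non-coding gene on the opposite strand. Unc13a shares 495 exon bases with Colgalt1 on the opposite strand, which averaged 63.9 CPM in the controls against 59.2 with Tppp3 AAV2, and Ctbp2 shares 314 with Fgfr2 on its own strand, at 2.02 and 3.42 CPM. Timp3, which lies within the third synapsin gene Syn3, held 107, 68.04 and 68.9 CPM in the controls against 111, 102 and 124 with Tppp3 AAV2 (log2 fold change 0.47, edgeR adjusted p = 0.730). Without control replicate 1, its highest control, the log2 fold change of Timp3 was 0.71 and the edgeR adjusted p 0.0427. In that fit 3 of 15063 tested genes were called. Control replicate 1 was also the control with most pigment epithelium markers, at a summed 198 CPM against 45.1 and 46.5. The Tppp3 AAV2 libraries held 214, 55.3 and 205. The part of pigment epithelium in the Timp3 values was not tested.

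A further 97 synaptic genes were listed by function, of which 96 were tested. None passed the threshold in either direction, and at an unadjusted p under 0.05 there were 6 higher and 2 lower, against 3.67% and 3.55% of all tested genes. DESeq2's Wald test also called 0. The median log2 fold change was 0.024. Of 32 other vesicle and fusion genes, 17 were positive and 15 negative. Cadps2, which primes dense-core vesicles, averaged 7.24 ± 0.142 CPM over the 3 controls against 10.2 ± 2.03 over the 3 Tppp3 libraries (SD), or 0.49 as log2 fold change, with 0.648 as adjusted p in edgeR's test. Stxbp5, of the syntaxin-binding protein tomosyn, stood at 0.11 (adjusted p = 0.682), and on the lower side Svop, a relative of SV2, stood at -0.13 (adjusted p = 0.687) in the same edgeR test.

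None of the other postsynaptic genes passed the threshold. Of 14 other scaffold and adhesion genes, 12 had positive fold changes and 2, Shank3 at -0.070 and Dlgap1 at -0.0034, negative ones, with a median of 0.092 against 0.0030 over all tested genes. At an unadjusted p under 0.05 in edgeR's test, 3 of the 14 were higher and 0 lower, against 3.67% and 3.55% of all tested genes. The groups lay apart for 5 of the 14, against 13.9% of all tested genes. Nlgn3 and Nlgn2, which encode neuroligins, adhesion proteins that span the synaptic cleft, had log2 fold changes of 0.23 and 0.15, each with an edgeR adjusted p of 0.648. Nlgn3 held 28.9, 33.3 and 29.1 CPM in the controls against 36.4, 36.9 and 34.1 with Tppp3 AAV2, groups that did not overlap. The groups did not overlap for Nlgn2 either. Of 20 other endocytosis genes 9 were positive and 11 negative, with Itsn1, of the scaffold intersectin 1, at 0.13 (adjusted p = 0.661) and the endophilin gene Sh3gl1 at -0.14 (adjusted p = 0.684) in that test.

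Genes that assemble the photoreceptor ribbon synapse and admit its calcium were split, 7 positive and 8 negative of 15, with a median of -0.0069. Cacna2d4, the accessory calcium channel subunit of photoreceptor terminals, averaged 588 ± 39.2 CPM over the 3 controls against 548 ± 22.1 over the 3 Tppp3 libraries (SD), a log2 difference of -0.10 with an adjusted p of 0.767 in edgeR's test, and Unc119 stood at -0.10. Dag1, of dystroglycan, stood at 0.078. Of 15 other active zone genes, 10 were positive, with the liprin genes Ppfia2 at 0.088 and Ppfia4 at -0.11.

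Of the markers of the cells that carry these synapses, 0 passed the threshold. All 9 rod markers were negative, with a median log2 fold change of -0.058, and 9 of 10 bipolar cell markers were positive, with a median of 0.10. Over all tested genes, 50.9% were positive. The summed rod level was 26610, 23226 and 27486 CPM with Tppp3 AAV2, lowest in replicate 2, against 26996 to 27577 in the controls. That of bipolar cells also overlapped between the groups, at 1835 to 2031 CPM in the controls against 1959.8 to 2233 with Tppp3 AAV2. The medians were -0.059 over 9 cone markers, 0.055 over 10 amacrine markers, 0.10 over 5 horizontal cell markers and 0.0051 over 10 ganglion cell markers. Pigment epithelium, which lies against the retina and has no synapses, varied between libraries within each group, with summed levels of 198, 45.1 and 46.5 CPM in the controls against 214, 55.3 and 205 with Tppp3 AAV2. The medians were 0.99 over the 8 tested pigment epithelium markers, 1.27 over 6 lens markers, 0.070 over 10 Müller glia markers and -0.16 over 10 microglia markers. The summed lens level was 4.42, 6.64 and 1.898 CPM in the controls against 26.4, 2.89 and 5.65 with Tppp3 AAV2, where only Tppp3 replicate 1 lay above the control range. The part of any of these cells in the synaptic values was not tested.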

How the data were processed

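Poly(A)-selected RNA of whole retina was sequenced as paired reads of 150 bases and the kit as labelled is not a directional one, per the labels' protocols. The authors deposited counts as whole numbers by gene symbol, without normalization, as the values show. The build is GRCm39 (mm39), per the submitters' processing notes. The aligner, the counting tool and the use of strand were not given in the sources used here. Lengths and overlaps came from GENCODE M21 on GRCm38, an older build. Of the 7 labelled samples (4 control, 3 Tppp3), 6 had a column that matched their title. The remaining control was not analysed here, and 1 further column, which is named as another Tppp3 library but matched no title, was left out. The treatment protocol in the labels gives the group sizes the other way round, and the sample labels were followed.

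Of 25655 genes, 14750 passed edgeR's filter by group. They were scaled by TMM and tested with the robust quasi-likelihood test of edgeR (two-sided), and p-values were adjusted by Benjamini-Hochberg over all of them, with a threshold of 0.05. Common biological variation was 11.9%. Standard errors came from the F statistic, and 95% intervals from its degrees of freedom. Alternatives were other scalings, tests and filters, thinning to equal depth, a replicate block, and leaving out each library. The versions used were DESeq2 1.42.0, edgeR 4.0.16 and limma 3.58.1 in R 4.3.3, and Python 3.11.15 with pandas 2.3.3 and matplotlib 3.10.9.

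The members and gene lists were chosen with earlier results of these data known. Values in every library are given, by rule, for the gene of smallest p and the most abundant gene of each role and for genes whose groups did not overlap. Those given for Syt1, Rab3a, Rph3a, Syn2, Stx1a, Ctbp2, Pclo, Rims1 and Rims2 were chosen after their values were seen. From the other synaptic lists, at most 2 genes of smallest p per direction were named. One listed rod marker is not reported here and was left out of the rod values.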

Additional observations from a re-analysis of the deposited data

How the results depend on the processing

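None of the 36 synaptic genes, and none of the 96 other synaptic genes, was called under any of the 13 alternatives. Over them the log2 fold changes of the 36 stayed between -0.12 and 0.25, and the smallest adjusted p was 0.457. Over all genes, the 2 calls became 14 with DESeq2's Wald test, 6 with no low-count filter, 1 with limma's voom and 1 with the replicate block, and numbered 0 to 3 when each library was dropped in turn. The labels do not explain the replicate numbers, and same-numbered libraries did not deviate together (correlations of -0.029, 0.051 and -0.26), so they were not taken as pairs. The block called 0 synaptic genes.

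Of the 36 genes, 17 kept their sign under every alternative, 13 of them positive and 4 negative. The others lie near 0 and changed sign at least once, and their log2 fold changes covered these ranges when each library was dropped in turn: Synpr -0.038 to 0.10, Syn1 -0.070 to 0.084, Syn2 -0.10 to 0.13, Sv2a -0.020 to 0.041, Sv2b -0.025 to 0.046, Sv2c -0.062 to 0.091, Syt1 -0.084 to 0.049, Nsf -0.015 to 0.024, Napb -0.018 to 0.10, Cplx1 -0.052 to 0.081, Cplx2 -0.028 to 0.077, Cplx3 -0.086 to 0.021, Cplx4 -0.016 to 0.053, Ctbp2 -0.062 to 0.061, Bsn -0.054 to 0.063, Unc13b -0.022 to 0.091, Unc13c -0.076 to 0.039, Dnm1 -0.026 to 0.014, Dlg4 -0.040 to 0.11. For the 17 that kept their sign the ranges were Syp 0.013 to 0.064, Syngr1 -0.043 to -0.010, Rab3a 0.0095 to 0.032, Rph3a 0.028 to 0.14, Dnajc5 0.042 to 0.12, Snap25 0.041 to 0.084, Vamp2 0.035 to 0.068, Stx1a 0.092 to 0.25, Stx3 -0.12 to -0.050, Pclo 0.034 to 0.13, Erc2 -0.069 to -0.024, Rims1 0.028 to 0.13, Rims2 0.022 to 0.22, Unc13a 0.056 to 0.13, Amph 0.053 to 0.080, Bin1 -0.044 to -0.0098, Synj1 0.039 to 0.11. Of the other genes named, the sign changed for Dlgap1 -0.058 to 0.049, Timp1 -0.43 to 0.77, Timp4 -0.22 to 0.49. Timp3 was called without control replicate 1, and Tppp3 with DESeq2's Wald test, as given above. Signs also changed for Syn1 at 0.0036, Syn2 at 0.033, Sv2c at -0.012, Cplx1 at 0.032, Unc13c at 0.0042, Dlgap1 at 0.0072 with limma's voom, for Syn1 at 0.022, Sv2a at -0.0064, Bsn at -0.029, Dnm1 at 0.0030 after thinning to equal depth, for Sv2b at -0.00066 with a mean of at least 1 CPM, for Ctbp2 at 0.0027 with the replicate block. The cause of these changes was not tested.

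Stx1a rests on 89 to 215 counts per library, and its interval is the widest of the 36. All control libraries were shallower than all Tppp3 libraries, so depth and group cannot be told apart in the full counts. After thinning to equal depth, 0 of the 36 were called and 24 were positive, with a median log2 fold change of 0.014. Stx1a then stood at 0.19.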
